A study of Mus musculus with 10 samples.

Results

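The expression of chemokines and chemokine receptors was followed across mouse astrocytes that carry glioma lesions, the glioma cells derived from them, and the same astrocytes forced to express the zinc-finger transcription factor Zfp423. Genes were taken by symbol: every feature named Ccl, Cxcl, Ccr or Cxcr followed by a number, and Cx3cl1. This gave 50 genes among 23230 features, with 19 CC ligands, 13 CXC ligands, 1 CX3C ligand, 10 CC receptors and 7 CXC receptors. Cxcr7 is the older symbol of the scavenging receptor Ackr3. Chemokine genes whose symbols have another form, such as Pf4 or Cx3cr1, were not members.

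Chemokines are small secreted proteins that guide the migration of cells carrying matching receptors, which signal through inhibitory G proteins. Inflammatory chemokines are switched on by NF-kappaB, interferons and cytokines and recruit monocytes, neutrophils or T cells, whereas homeostatic ones such as Cxcl12 are made constitutively and position cells during development. In the brain, astrocytes are a known source of Ccl2, Cxcl1, Cxcl10, Cxcl12 and Cxcl14, neurons are the main source of Cx3cl1, and microglia carry its receptor Cx3cr1.

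RNA was sequenced from 10 cultures in 3 groups. AstroEGFR (3 libraries) were C57BL/6 astrocytes of the cerebral cortex taken at day P5, knocked out for p16/p19 (Ink4a/Arf) and infected with a retrovirus for the human EGFR variant EGFRvIII, and they were grown with fetal bovine serum. PT (4 libraries) were glioma propagating cells from tumours that such astrocytes formed in CD1 Nude mice, a host without T cells, and they were grown in serum-free medium with EGF and FGF2. AstroEGFR_Zfp423 (3 libraries) were AstroEGFR that also received a viral vector for Zfp423, called lentiviral in the sample labels and retroviral in the study's methods. By their labels and derivation, all 10 cultures carry the p16/p19 knockout and EGFRvIII and were used below passage 10. The numbers 1 to 3 are independent astrocyte batches. Batch 1 gave PT1 and PT4, batch 2 gave PT2 and batch 3 gave PT3. The medium and the tumour step differ together between AstroEGFR and PT and cannot be told apart.

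Values are FPKM, in which fragments are scaled to transcript length and to library size, so levels of different genes can be set side by side per length. AstroEGFR 3 and PT3 were shallow, with an estimated 0.0743 and 0.0915 of the depth of PT1, and the other libraries had between 0.518 and 1. Values of 0 are given as listed and not as absence, since Hmgcs1, used by every cell, is listed at 0 in all 10 libraries. Low values above 0 carry the same doubt: Gapdh, a glycolytic enzyme abundant in every cell, is listed at 0.0204, 0.0206 and 0.0106 FPKM in AstroEGFR 1, PT1 and PT4, at 50.1 FPKM in PT3 and at 1.16 to 2.52 FPKM in the other 6 libraries. Zfp423 itself stood at 4.30, 3.25 and 3.48 FPKM in AstroEGFR 1 to 3 and at 15.7, 9.73 and 105 FPKM in AstroEGFR_Zfp423 1 to 3, so the targeted gene was higher in each transduced culture than in its parent. The mouse Egfr feature, which is not the human transgene, stood at 7.81, 362 and 63.0 FPKM in AstroEGFR 1 to 3, at 18.9 to 134 FPKM in PT and at 116, 82.2 and 343 FPKM in AstroEGFR_Zfp423 1 to 3; how much of it comes from the transgene was not tested. Astrocyte markers reached 1 FPKM for 8 or 9 of 9 genes in 9 libraries and for 6 of 9 in AstroEGFR_Zfp423 2, where Gfap, the astrocyte intermediate filament, was at 1.11 FPKM. Markers of microglia and macrophages were far higher in AstroEGFR_Zfp423 1 and 2 than in the other 8 libraries, and these values are given below beside the chemokines they move with.

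Of the 50 genes, 6 were listed at 0 in every library (Ccl1, Ccl19, Ccl26, Ccl28, Ccr6 and Ccr8), 22 never reached 1 FPKM, and 28 reached it at least once. The 19 genes that reached 10 FPKM in some library were 7 CC ligands, 6 CXC ligands, Cx3cl1, 2 CC receptors and 3 CXC receptors. Only 6 genes were at 1 FPKM or more in all 10 libraries, namely Ccl2, Ccl25, Cxcl10, Cxcl14, Cx3cl1 and Cxcr4. The number of genes at 1 FPKM or more was 11, 8 and 12 in AstroEGFR 1 to 3, 9, 16, 11 and 10 in PT1 to PT4, and 19, 22 and 7 in AstroEGFR_Zfp423 1 to 3. The lowest and the highest counts were thus both found among the Zfp423 cultures.

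**Figure D1:**
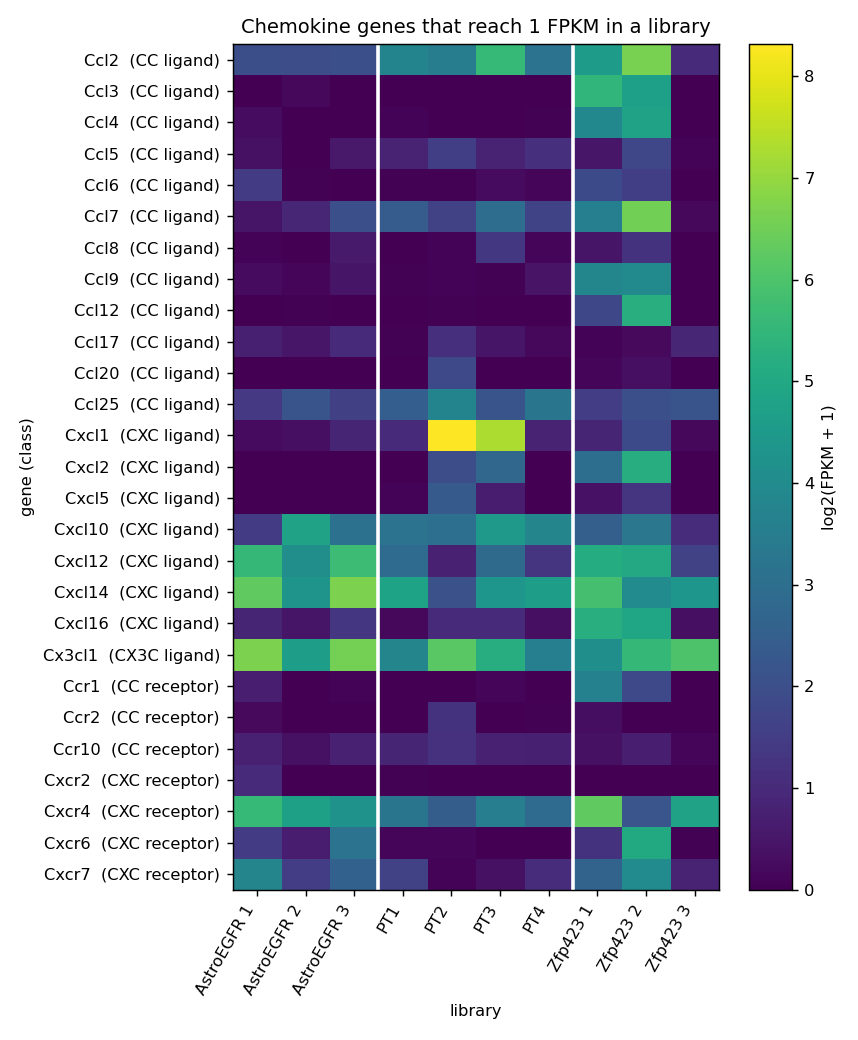
Level of 27 of the 28 genes that reached 1 FPKM in at least 1 library, as log2(FPKM + 1) on the colour scale, with genes in rows by class and the 10 libraries in columns; columns named Zfp423 are the AstroEGFR_Zfp423 cultures and white lines separate the groups. Cxcl1 is brightest in PT2 and PT3 (318 and 157 FPKM), Cxcl12, Cxcr7 and Cxcr6 are darker in PT, and a block of CC ligands with Ccr1 and Cxcl16 is bright only in AstroEGFR_Zfp423 1 and 2.

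The leading ligands of AstroEGFR were Cx3cl1, Cxcl14, Cxcl12 and, in 1 culture, Cxcl10. Cx3cl1 (fractalkine), a membrane-tethered chemokine released by ADAM proteases, stood at 102, 23.9 and 95.6 FPKM in AstroEGFR 1 to 3. Its share of the summed ligand FPKM was 43.3%, 25.3% and 35.5%. In AstroEGFR 2 the first ligand was the interferon-inducible Cxcl10, with 28.1% of the sum. Cxcr4, the signalling receptor of Cxcl12, was the first receptor in all 3 AstroEGFR libraries and in all 4 PT libraries, with between 56.8% and 91.1% of the summed receptor FPKM.

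The comparison of PT with AstroEGFR asks which genes differ between the tumorigenic astrocytes and the glioma cells they gave rise to. It was made with limma on log2(FPKM + 1), and differences below are on that scale, which understates the change of weakly expressed genes. With Benjamini-Hochberg adjustment over the 12261 features that averaged 1 FPKM or more, 152 features passed an adjusted p of 0.05 (1.24%), of which 39 were higher and 113 lower in PT. Only 12 of the 50 chemokine genes passed the filter on low values, and 0 of these passed the threshold. At an unadjusted p below 0.05 there were 6 of the 12 genes, beside 13.6% of all features. Ccl2 and Ccl25 were higher (5.88% of all features) and Cxcl12, Cxcr4, Cxcr7 and Cxcr6 lower (7.69%). A gene enters this filter through the group in which it is high, so counts over the 12 genes are a description. In PT 6 of the 12 were higher and 6 lower. Their median difference was -0.39, beside 0.03 over all features tested, and it had no stable direction: with 1 library left out it ranged from -1.45 (without PT3) to 0.50 (without AstroEGFR 3), and it moved by over 1.5 times without any library but AstroEGFR 2. With no filter, 43 genes gave 19 differences above 0 and 24 below and a median of -0.0045. When the astrocyte batch was added as a block, 475 features (3.87%) and 3 of the 12 genes passed, and all 3 (Cxcl12, Cxcl14 and Cxcr7) were lower in PT, beside 2.68% of all features.

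**Figure D2:**
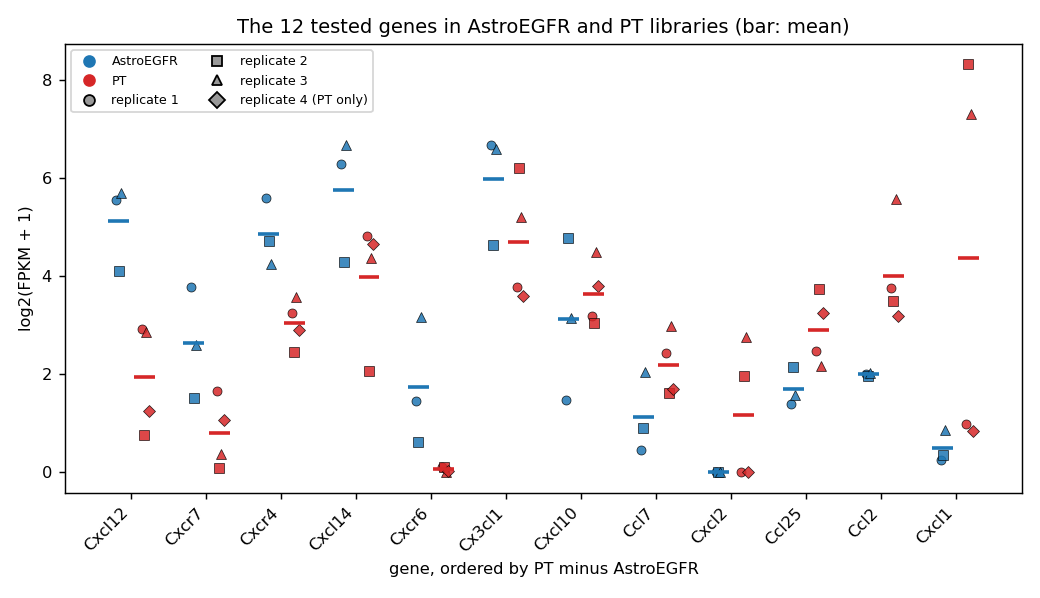
Level of the 12 tested genes, as log2(FPKM + 1), in the AstroEGFR libraries (blue) and PT libraries (red); symbols give the replicate number, horizontal bars are group means and genes are ordered from the lowest to the highest difference. The groups do not overlap for Cxcl12, Cxcr4 and Cxcr6, which are lower in PT, or for Ccl25 and Ccl2, which are higher; the Cxcl1 points of PT fall into a high and a low pair.

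The homeostatic ligand Cxcl12 and its 2 receptors had lower means in PT, but none of the 3 passed the test without the block, and Cxcr4 did not pass with it. Cxcl12 stood at 46.0, 16.2 and 50.7 FPKM in AstroEGFR 1 to 3 and at 6.56, 0.697, 6.28 and 1.37 FPKM across PT1 to PT4. Every PT library lay below every AstroEGFR library. AstroEGFR had a mean log2(FPKM + 1) of 5.12 ± 0.88 (SD, n = 3) and PT one of 1.95 ± 1.11 (SD, n = 4), a difference of -3.17 (SE 0.66, limma, adjusted p = 0.0758). With the batch as a block the difference was -3.24 (SE 0.44) and passed the threshold in limma with Benjamini-Hochberg adjustment (adjusted p = 0.0283). Taken batch by batch, each PT culture was below its own astrocytes, by -2.63 for PT1, -3.34 for PT2, -2.83 for PT3 and -4.31 for PT4. In an exact permutation test of the 7 libraries (two-sided) p was 0.0286, the smallest that 3 against 4 can give. That test takes no account of the batches, although PT1 and PT4 share 1 and each PT culture has a parent among the AstroEGFR.

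Cxcr4, through which Cxcl12 signals, stood at 47.0, 25.3 and 18.0 FPKM in AstroEGFR and at 8.47, 4.49, 10.9 and 6.44 FPKM in PT. The groups again did not overlap, and the difference was -1.81 (SE 0.40, limma, adjusted p = 0.0878; 0.0612 with the block). Cxcr7, which binds Cxcl12 and removes it without G protein signalling, stood at 12.7, 1.84 and 5.05 FPKM in AstroEGFR and at 2.14, 0.0655, 0.293 and 1.08 FPKM in PT. PT1 lay above AstroEGFR 2, so the groups overlapped across batches, while within batches each PT culture was below its parent by 1.41 to 2.72. The difference of Cxcr7 was -1.83 (SE 0.61, limma, adjusted p = 0.25), and with the block it was -2.06 (SE 0.33) and passed the threshold (limma, adjusted p = 0.0391). The summed level of the 2 receptors thus ranged from 23.1 to 59.6 FPKM in AstroEGFR and from 4.56 to 11.2 FPKM in PT.

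Cxcl14, a CXC ligand that attracts monocytes and dendritic cells and is expressed by glia, stood at 76.6, 18.6 and 101 FPKM in AstroEGFR and at 27.3, 3.21, 19.6 and 24.3 FPKM in PT. Batch 2 was the lowest in both groups, and 3 of the 4 PT libraries lay above AstroEGFR 2. Without the block the difference was -1.77 (SE 0.81, limma, adjusted p = 0.402), and over all alternative fits it ranged from -2.50 to -1.13. Within batches the differences were close to each other, -1.46, -2.22, -2.31 and -1.62 for PT1 to PT4, and with the block the difference was -1.97 (SE 0.21, limma, adjusted p = 0.0180). None of the 3 calls made with the block held in every further fit: leaving out AstroEGFR 2, AstroEGFR 3, PT2 or PT3 in turn, or both shallow libraries, left 0 of the genes past the threshold. Leaving out PT1 or PT4 left Cxcl12 (adjusted p = 0.0472 and 0.0475), and leaving out AstroEGFR 1 left Cxcl14 and added Cxcl1, which was higher (both adjusted p = 0.0427).

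Markers of fibroblasts and meninges also had lower mean log2(FPKM + 1) in PT, for all 10 of the list. Of the 10, 3 (Acta2, Tagln and Pdgfrb) passed the threshold without the block, beside 1.24% of all features, and 6 with it, beside 3.87%. For Pdgfra the difference was -0.22 (SE 1.21), and its highest value of the 10 libraries was in PT4, at 41.9 FPKM. The summed level of the 10 markers was 2047, 1737 and 9223 FPKM in AstroEGFR 1 to 3, 145, 48.6, 536 and 94.1 FPKM in the PT cultures, and 6461, 9903 and 477 FPKM in AstroEGFR_Zfp423 1 to 3. The 5 libraries with the highest sums were also the 5 with the most Cxcl12 (16.2 to 50.7 FPKM, beside at most 6.56 FPKM in the others). Fibroblasts of the meninges are a known source of Cxcl12, and the part of these cells in its values was not tested. In bulk cultures, fewer cells of a type and less RNA per cell cannot be told apart.

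Cxcr6, the receptor of the membrane-bound ligand Cxcl16, stood at 1.72, 0.540 and 7.93 FPKM in AstroEGFR and at 0.0770, 0.0812, 0 and 0.0131 FPKM in PT. The groups did not overlap, and PT3 is listed at 0. The difference was -1.68 (SE 0.60, limma, adjusted p = 0.281). Its ligand Cxcl16 was between 0.122 and 1.49 FPKM in the 7 libraries. Cx3cl1 did not separate the groups: it stood at 12.8, 72.4, 35.7 and 11.0 FPKM across PT1 to PT4, and PT2 was above AstroEGFR 2 while the other 3 PT libraries were below their parents. Its difference was -1.28 with a 95% interval from -3.05 to 0.49. The Cx3cl1 receptor Cx3cr1 was at most 0.400 FPKM in these 7 libraries.

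Cxcl1, a ligand of Cxcr2 that recruits neutrophils, had the largest standard error of the 12 tested genes. It stood at 0.194, 0.268 and 0.823 FPKM in AstroEGFR 1 to 3 and at 0.977, 318, 157 and 0.789 FPKM across PT1 to PT4. PT2 and PT3 were high, whereas PT1 and PT4, which share an astrocyte batch, were below 1 FPKM, as were the 3 AstroEGFR libraries, though both lay above their own parent, AstroEGFR 1. In PT2 and PT3 it was the first ligand, with 72.2% and 50.9% of the summed ligand FPKM. The difference between the groups was 3.87 with a 95% interval from -0.60 to 8.35 (SE 1.93, limma, adjusted p = 0.437; 0.125 with the block), so it did not exceed the spread among the PT cultures. Over all alternative fits the difference of Cxcl1 ranged from 2.55 to 7.21. PT3 is one of the shallow libraries, at 0.0915 of the depth of PT1.

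The neighbouring gene Cxcl2, which acts through the same receptor, was listed at 0 in all 3 AstroEGFR libraries and in PT1 and PT4, and stood at 2.88 and 5.72 FPKM in PT2 and PT3. Cxcl5 was listed at 0 in AstroEGFR and stood at 0.0520, 4.12, 0.561 and 0.0227 FPKM across PT1 to PT4. Cxcl3, although it lies in the same run of genes (Cxcl3, Cxcl15, Cxcl1 and Cxcl2 follow each other on chromosome 5), stayed at or below 0.189 FPKM in all 10 libraries. The receptors Cxcr1 and Cxcr2 were listed at 0 in PT2 and PT3. Cxcr2 was above 1 FPKM in AstroEGFR 1 alone, at 1.05 FPKM, and this library also held the neutrophil genes S100a8 and S100a9 at 244 and 253 FPKM, beside at most 7.03 FPKM elsewhere. Cxcl3, Cxcl5 and Cxcr2 lie outside the naming rule and were chosen after their values were seen.

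Upstream windows of 250 bases are shown because 3 neighbouring genes with the same motif differ widely in level, and because Cxcl10 carries the motif at 2 places. They are from RefSeq on GRCm38.p6, end 1 base before the annotated start of transcription and are written 5′ to 3′ on the gene's strand: Cxcl1 (chr5:90890995-90891244, plus strand), Cxcl2 (chr5:90903649-90903898, plus strand), Cxcl3 (chr5:90785851-90786100, plus strand) and Cxcl10 (chr5:92348890-92349139, minus strand). Capitals mark matches to the NF-kappaB consensus on either strand.
Cxcl1: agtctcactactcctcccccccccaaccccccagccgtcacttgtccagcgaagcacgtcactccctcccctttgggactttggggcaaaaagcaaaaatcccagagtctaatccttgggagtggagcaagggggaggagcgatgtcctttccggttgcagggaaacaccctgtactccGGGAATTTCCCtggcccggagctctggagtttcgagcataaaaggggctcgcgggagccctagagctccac
Cxcl2: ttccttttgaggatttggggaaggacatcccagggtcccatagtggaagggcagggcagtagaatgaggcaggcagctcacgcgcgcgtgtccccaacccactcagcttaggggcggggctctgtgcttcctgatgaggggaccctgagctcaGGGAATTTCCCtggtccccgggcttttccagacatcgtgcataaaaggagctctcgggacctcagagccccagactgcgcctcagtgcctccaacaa
Cxcl3: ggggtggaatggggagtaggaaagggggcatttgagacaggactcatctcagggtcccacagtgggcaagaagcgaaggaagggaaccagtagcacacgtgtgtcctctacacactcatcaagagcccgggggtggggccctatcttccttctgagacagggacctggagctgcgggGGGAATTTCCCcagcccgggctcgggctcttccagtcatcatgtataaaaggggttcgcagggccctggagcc
Cxcl10: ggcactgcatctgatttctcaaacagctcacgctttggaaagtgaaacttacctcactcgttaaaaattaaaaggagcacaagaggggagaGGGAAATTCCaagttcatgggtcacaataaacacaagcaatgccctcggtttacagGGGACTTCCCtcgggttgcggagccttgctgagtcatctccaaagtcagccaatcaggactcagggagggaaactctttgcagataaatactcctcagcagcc

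The same 11 letters, GGGAATTTCCC, stand in capitals in Cxcl1, Cxcl2 and Cxcl3, where a match on the plus strand and one on the minus strand overlap; counted from the start site, they begin at -71, -97 and -73. In Cxcl10 the 2 matches begin at -159 and -103, and a match to the core of the interferon-stimulated response element begins at -213. Windows were found for 35 of the 50 genes. The consensus was present in 8 of them, beside 3.90% of 32851 promoters, in 4 of 14 genes that reached 10 FPKM and in 4 of 21 that did not. TATAAA was present in 11 of the 35 (12.4% of all promoters) and the interferon-stimulated response element core in 3 (2.98%), both searched on both strands. A match is a stretch of letters and not evidence of binding, and Cxcl3 carried the motif at less than 0.2 FPKM.

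NF-kappaB and cytokine genes were examined as a list of 27, of which 21 were tested. Without the block 0 passed the threshold, beside 1.24% of all features, and 3 had an unadjusted p below 0.05, beside 13.6%. With the block 1 passed, beside 3.87% of all features. It was Nfkbiz, an inducible co-regulator of NF-kappaB, which was higher by 2.13 (SE 0.20, limma, adjusted p = 0.0138). Nfkbiz stood at 2.46, 7.32 and 3.71 FPKM in AstroEGFR 1 to 3 and at 11.3, 47.4, 20.5 and 10.5 FPKM across PT1 to PT4. Like Cxcl1, it was highest in PT2 and PT3. PT2 and PT3 were the 2 highest PT libraries for 12 of the 21 tested genes, beside 3682 of all 12261 features tested. Genes of the list with this order, singled out after their values were seen, included 3: Nfkbia, the NF-kappaB inhibitor and target, stood at 20.3, 47.5, 32.4 and 23.3 FPKM, Relb at 4.37, 24.3, 12.6 and 5.73 FPKM, and the prostaglandin synthase Ptgs2 at 0.238, 54.6, 15.3 and 0.372 FPKM. Other genes of the list had other orders: the adhesion molecule Vcam1 stood at 91.6, 9.001, 97.0 and 84.2 FPKM, the cytokine Lif was highest in PT1 (15.0 FPKM), and Rela, Tnfrsf1a and Il1r1 were lowest in PT2. Microglia markers summed to 43.4 FPKM in PT2, of which Cd68 gave 36.5, and to 7.99 FPKM in PT3, and C1qa, C1qb and C1qc were at or below 0.275 FPKM in both. Cd14 of the same list stood at 0.295, 0.266 and 0.707 FPKM in AstroEGFR 1 to 3 and at 5.33, 5.76, 0.811 and 2.36 FPKM across PT1 to PT4. Its difference was 1.51 (SE 0.52, limma, adjusted p = 0.260). Of the microglia list 3 genes were tested between PT and AstroEGFR, 2 higher and 1 lower, and 0 passed the threshold.

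**Figure D3:**
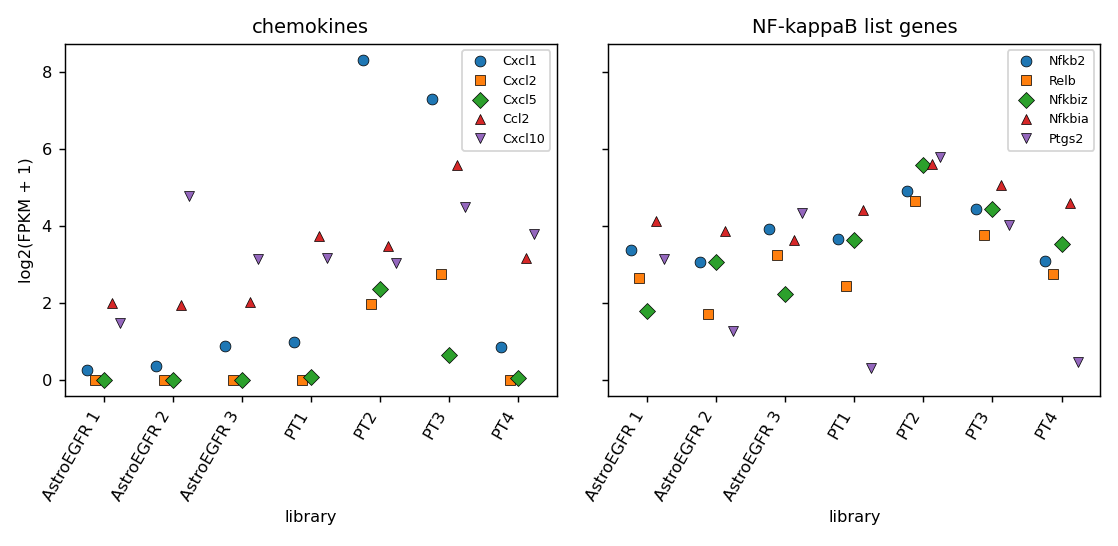
Level, as log2(FPKM + 1), of 5 chemokines (left) and 5 genes of the NF-kappaB list (right) in the 3 AstroEGFR and 4 PT libraries, 1 point per library, shifted sideways so that points do not cover each other. Cxcl1, Cxcl2 and Cxcl5 are highest in PT2 and PT3, and so are Nfkbiz, Nfkbia, Nfkb2 and Relb, while Ptgs2 is also high in AstroEGFR 3 (19.2 FPKM).

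The monocyte attractant Ccl2 was steady in AstroEGFR and higher in each PT library. It stood at 3.01, 2.87 and 3.06 FPKM in AstroEGFR 1 to 3 and at 12.4, 10.2, 46.6 and 8.05 FPKM across PT1 to PT4. The groups did not overlap, and the difference was 2.004 (SE 0.551, limma, adjusted p = 0.156; 0.0689 with the block). Ccl7, the next gene on chromosome 11 and a ligand of the same receptor, stood at 0.376, 0.867 and 3.10 FPKM in AstroEGFR and at 4.36, 2.07, 6.91 and 2.25 FPKM in PT. It was above the parent in all 4 PT cultures, with a difference of 1.05 (SE 0.51, limma, adjusted p = 0.426). Their receptor Ccr2 reached 1.32 FPKM in PT2 and was at most 0.232 FPKM in the other 9 libraries.

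Ccl25, a ligand of Ccr9 best known from thymus and gut, stood at 1.62, 3.45 and 1.97 FPKM in AstroEGFR and at 4.54, 12.4, 3.51 and 8.47 FPKM in PT. The lowest PT library, PT3, lay just above the highest AstroEGFR library, and the difference was 1.20 (SE 0.44, limma, adjusted p = 0.292). Cxcl10, a T cell attractant that acts through Cxcr3, stood at 1.77, 26.5 and 7.85 FPKM in AstroEGFR and at 8.04, 7.25, 21.6 and 12.9 FPKM in PT, and the groups overlapped widely. Among the 38 genes below the filter, the groups did not overlap for Ccl5 and Cxcl5, both higher in PT. Ccl5, a T cell and monocyte attractant named here after its values were seen, stood at 0.294, 0 and 0.476 FPKM in AstroEGFR and at 0.758, 1.94, 0.728 and 1.19 FPKM in PT. Groups that do not overlap were found for 14.8% of the tested features (6.95% higher and 7.81% lower in PT) and for 5 of the 12 tested chemokine genes (2 higher and 3 lower).

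Genes that act downstream of the receptors or process the ligands formed a list of 23, of which 17 were tested and 0 passed the threshold, with or without the block. At an unadjusted p below 0.05 there were 2 of the 17, beside 13.6% of all features, and 5 with the block (1 higher and 4 lower), beside 3117 of all 12261 features. The 2 were Ptk2b, a kinase activated by chemokine receptors, at -1.84 (SE 0.40, limma, adjusted p = 0.0840), and Mmp2, a protease that cleaves Cxcl12, at -3.46 (SE 1.05, limma, adjusted p = 0.193). Gnai2, the inhibitory G protein subunit through which most of these receptors signal, was at 140 to 480 FPKM in the 7 libraries, with a difference of -0.45 (SE 0.43, limma, adjusted p = 0.725; 0.139 with the block).

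The comparison of AstroEGFR_Zfp423 with AstroEGFR asks which genes differ when Zfp423 is expressed from a vector, and each transduced culture was set against its own batch. With limma and the batch as a block, 0 of 12366 features (0%) passed an adjusted p of 0.05, 0 of 19 chemokine genes that passed the filter were among them, and without the block 2 features and 0 chemokine genes passed. At an unadjusted p below 0.05 there were 913 features (7.38%) and 1 of the 19 genes, Ccl3, which was higher (3.30% of all features). This count was not stable: it was 9, all higher, without batch 3, 7 (6 higher and 1 lower) with all 10 libraries in 1 fit, and 0 with a pseudocount of 0.1, without the filter or without the trend, while that of all features ranged from 241 (without batch 1) to 1761 (without batch 3). Without batch 1 or batch 2 it was 1 gene, which was lower. Of the 19 genes, 13 had a mean difference above 0 and 6 below, with a median of 1.56 beside 0.02 over all features tested. The median was 1.17 without batch 1, 0.63 without batch 2 and 2.38 without batch 3. Several of the 19, among them Ccl3, Ccl4, Ccl9, Ccl12 and Cxcl2, passed the filter only through AstroEGFR_Zfp423 1 and 2, so counts and medians over the 19 are a description. With no filter, 44 genes gave 28 differences above 0 and 16 below and a median of 0.06. The batches did not move together: 14 of the 19 genes were higher in batch 1, 15 in batch 2 and 2 in batch 3, and the median difference was 1.81, 2.51 and -0.46. Higher in all 3 batches were 0 of the 19 genes (16.3% of all features), and lower in all 3 was 1, Cxcl14 (15.2% of all features). The AstroEGFR libraries are the same as in the comparison with PT, so the 2 comparisons share their control values.

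**Figure D4:**
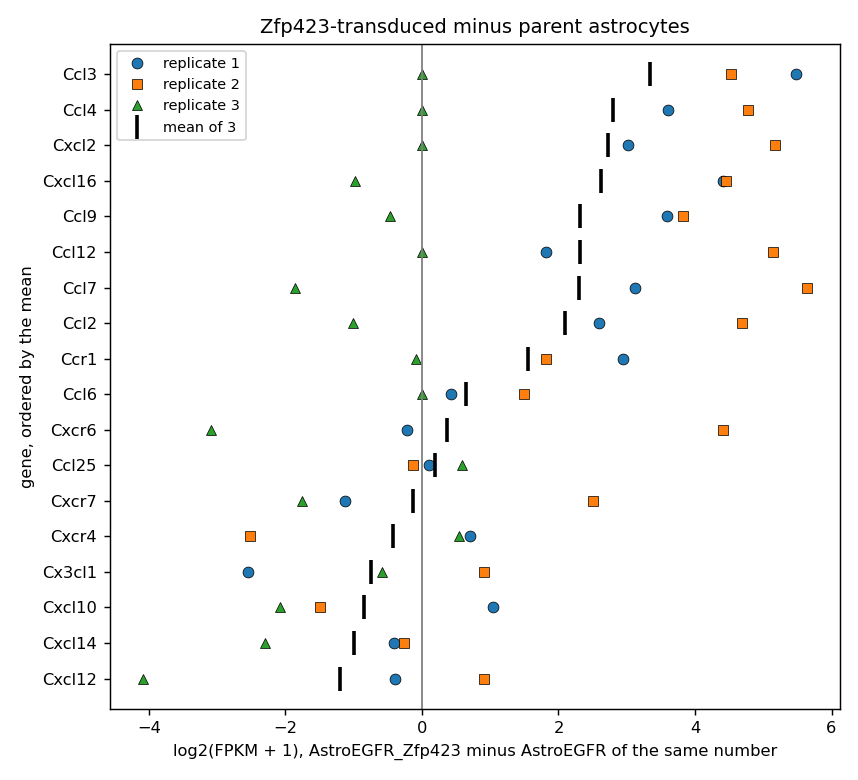
Difference in log2(FPKM + 1) between each AstroEGFR_Zfp423 culture and the AstroEGFR culture of the same number for 18 of the 19 tested genes, 1 symbol per pair, with the mean of the 3 pairs as a vertical tick. For the 9 genes at the top, from Ccl3 to Ccr1, pairs 1 and 2 lie to the right of 0 and pair 3 lies at or to the left of 0.

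Several inflammatory CC ligands were abundant in AstroEGFR_Zfp423 1 and 2 alone. Ccl3 and Ccl4, neighbouring genes on chromosome 11 whose products act on receptors that include Ccr1, are typical of activated macrophages. Ccl3 stood at 0, 0.129 and 0 FPKM in AstroEGFR 1 to 3, at or below 0.0180 FPKM in PT, and at 43.7, 25.0 and 0 FPKM in AstroEGFR_Zfp423 1 to 3. Its mean difference was 3.33 (SE 1.21, limma, adjusted p = 0.628). Ccl4 stood at 0.218, 0 and 0 FPKM in AstroEGFR and at 13.8, 26.5 and 0 FPKM in AstroEGFR_Zfp423, with a difference of 2.79 (SE 1.06, limma, adjusted p = 0.628). For both genes 2 cultures were far above all others and the third was listed at 0.

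Ccl9, a ligand of Ccr1 made by myeloid cells, stood at 13.2, 14.3 and 0 FPKM in AstroEGFR_Zfp423 1 to 3 and at or below 0.379 FPKM in the other 7 libraries. Ccl12, a ligand of Ccr2, stood at 2.52, 35.9 and 0 FPKM beside at most 0.0457 FPKM elsewhere. Ccl6, a myeloid CC ligand that did not reach the level for naming and was chosen after its values were seen, stood at 2.64, 1.92 and 0 FPKM, and AstroEGFR 1 came next with 1.70 FPKM. The differences of Ccl9 and Ccl12 were 2.32 (SE 1.03) and 2.32 (SE 1.11), and neither passed the test (limma, adjusted p = 0.637 and 0.647).

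Ccl2 and Ccl7 were highest in AstroEGFR_Zfp423 2. Ccl2 stood at 23.3, 99.1 and 1.02 FPKM in AstroEGFR_Zfp423 1 to 3, with differences from the parent of 2.60, 4.69 and -1.01 on the log2(FPKM + 1) scale. Ccl7 stood at 11.0, 92.3 and 0.125 FPKM. Together with Ccl8 and Ccl12, the 4 ligands of Ccr2 summed to 229 FPKM in AstroEGFR_Zfp423 2, the highest of the 10 libraries, while Ccr2 itself was at 0.0109 FPKM there. Cxcl2 stood at 7.09, 35.1 and 0 FPKM in AstroEGFR_Zfp423 1 to 3, and unlike in PT2 and PT3 it was accompanied by little Cxcl1 (0.828, 2.69 and 0.126 FPKM).

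Cxcl16, a membrane-bound ligand of Cxcr6 that also takes up oxidised lipids in macrophages, stood at 37.4, 29.1 and 0.258 FPKM in AstroEGFR_Zfp423 1 to 3 and at most 1.49 FPKM elsewhere. Its receptor Cxcr6 followed another order, at 1.35, 31.9 and 0.0455 FPKM, so that ligand and receptor were both above 10 FPKM only in AstroEGFR_Zfp423 2. Ccr1, a receptor of Ccl3 on myeloid cells, stood at 11.6, 2.57 and 0 FPKM, and at or below 0.624 FPKM in the other 7 libraries. It was higher in culture 1 than in culture 2, as were Ccl3, Ccl6 and Cxcl16. The order was the reverse for Ccl2, Ccl4, Ccl7, Ccl9, Ccl12 and Cxcl2.

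Over the 44 chemokine genes listed above 0 in at least 1 library, with no filter on low values, the 2 highest of the 10 libraries were AstroEGFR_Zfp423 1 and 2 for 12, beside 5.82% of all features listed above 0. Among them were the ligands Ccl3, Ccl4, Ccl7, Ccl9, Ccl12, Cxcl2 and Cxcl16. The same 2 libraries were the highest for all 18 markers of microglia and macrophages that were found. The markers summed to 54.0, 11.1 and 10.5 FPKM in AstroEGFR 1 to 3, to between 7.13 and 43.4 FPKM in PT, and to 5550, 1913 and 1.84 FPKM in AstroEGFR_Zfp423 1 to 3. All 18 were at 1 FPKM or more in AstroEGFR_Zfp423 1 and 2 and 1 of 18 in AstroEGFR_Zfp423 3. The complement gene C1qa stood at 433, 290 and 0 FPKM in the transduced cultures and Cx3cr1 at 105, 13.7 and 0.00549 FPKM. Markers of other cells differed in these cultures too. Astrocyte markers summed to 609, 526 and 1085 FPKM in AstroEGFR 1 to 3 and to 211, 64.5 and 926 FPKM in AstroEGFR_Zfp423 1 to 3, and all 9 had a mean difference below 0, of which 0 passed the threshold of limma. An unadjusted p below 0.05 was reached by 4 of the 9 with the block, beside 7.38% of all features, and by 1 without it. The sums of the fibroblast and meningeal markers, given above, were higher than in the parent in batches 1 and 2 and lower in batch 3. The part of any of these cells in the chemokine values was not tested.

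**Figure D5:**
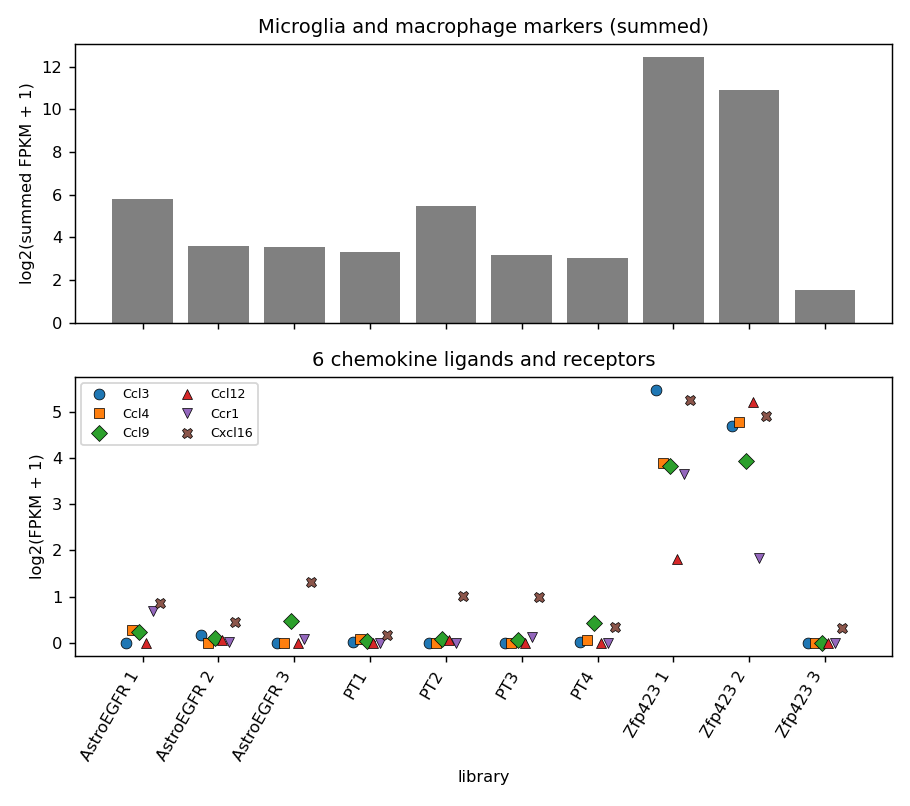
Summed level of 18 microglia and macrophage markers, as log2(summed FPKM + 1) (bars, top), and level of 6 chemokine ligands and receptors, as log2(FPKM + 1) (points, shifted sideways, bottom), in each of the 10 libraries. Both are highest in AstroEGFR_Zfp423 1 and 2, with marker sums of 5550 and 1913 FPKM, and lie near the bottom in AstroEGFR_Zfp423 3.

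Among the genes that led in AstroEGFR, Cxcl14 was below its parent in each transduced culture, and Cxcl12, Cxcr4, Cxcr7 and Cx3cl1 differed in direction between batches. Cxcl12 stood at 34.6, 31.2 and 2.04 FPKM in AstroEGFR_Zfp423 1 to 3, beside 46.0, 16.2 and 50.7 FPKM in the parents, so the large difference was in batch 3 (-4.09). Cxcl14 stood at 57.2, 15.3 and 19.7 FPKM, with differences of -0.41, -0.26 and -2.30, with a mean of -0.99 (SE 0.49, limma, adjusted p = 0.652). Cxcr4 stood at 77.5, 3.59 and 26.7 FPKM, with both the highest and the lowest value of the 10 libraries in this group. Its mean difference was -0.42 with a 95% interval from -2.47 to 1.62. Cxcr7 stood at 5.25, 15.2 and 0.788 FPKM, above its parent in batch 2 and below it in batches 1 and 3.

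Cx3cl1 stood at 16.7, 45.7 and 63.1 FPKM in AstroEGFR_Zfp423 1 to 3. It was below its parent in batches 1 and 3 and above it in batch 2, and its receptor Cx3cr1 was highest where Cx3cl1 was lowest within this group. Ccl25 stood at 1.83, 3.08 and 3.47 FPKM and differed from its parent by 0.11, -0.13 and 0.59. Cxcl10 stood at 4.72, 8.77 and 1.10 FPKM, with its 95% interval of the difference from -2.77 to 1.09. Of the 24 tested genes of the NF-kappaB list 0 passed the threshold of limma and 3 had an unadjusted p below 0.05, and of the 22 tested signalling and processing genes 0 passed and 4 had one. Some genes of the signalling list, chosen after their values were seen, were also high in AstroEGFR_Zfp423 1 and 2: Rgs1, a regulator of G protein signalling in leukocytes, stood at 38.6, 49.1 and 0 FPKM. Mmp2 stood at 114, 237 and 0.157 FPKM, but it was high in AstroEGFR 3 as well, at 128 FPKM.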

How the data were processed

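The authors deposited 1 matrix of FPKM values for 23230 features in 10 libraries, and its values contain no fragment counts. The submitters' processing notes name TopHat 1.3, Cuffnorm and the mm9 build, and the study tested differences with CuffDiff. The labels name a TruSeq RNA kit, while the methods describe ribosomal RNA removal and stranded libraries. Here features that averaged 1 FPKM or more were compared on log2(FPKM + 1) with limma 3.58.1 in R 4.3.3 (empirical Bayes with a trend, Benjamini-Hochberg adjustment over all features tested, threshold 0.05). PT and AstroEGFR were compared without a block, as 3 against 4 libraries, and AstroEGFR_Zfp423 and AstroEGFR with the astrocyte batch as a block. Relative depth was read from the commonest ratio of 2 libraries among features that 3 or more libraries list at 0, and 33 of 36 library pairs were within 0.1 (log2) of the chained estimate. Only this relative depth is known, so no counting interval is given. Each library is 1 culture, and p-values measure the spread between these cultures.

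The batch of each PT culture is from the study. Deviations from the group mean of AstroEGFR and PT of the same batch correlated at 0.35 to 0.50 across features, and all other pairs were negative. For AstroEGFR_Zfp423 the labels give the parent culture in the sample name, and the correlations were 0.24, -0.11 and -0.26, while those between different numbers ranged from -0.23 to 0.30, the highest between AstroEGFR 3 and AstroEGFR_Zfp423 2. These correlations do not show the pairing, and the block rests on the labels; Xist was at 20.4 to 34.9 FPKM in the 3 libraries numbered 2 and at most 0.0403 FPKM in the other 7.

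Genes were named that passed the threshold in either comparison, reached 10 FPKM in some library, or were among the 5 largest rises or falls of the tested genes. The genes, lists and markers were chosen with earlier results of these data known. The fit of PT without the block was tested on simulated data, with changes placed only in well-expressed features of low spread. That test does not cover weakly expressed or variable genes, or the fits with the block. Upstream windows and gene order are from RefSeq. Figures were made with matplotlib 3.10.9. Alternatives were a pseudocount of 0.1, no filter, median-ratio scaling, no trend, all 10 libraries in 1 fit, the block added or removed, PT1 and PT4 averaged, the libraries under 0.2 of the relative depth left out, and each library or batch left out. Leaving out libraries from the fit of PT with the block was added after seeing the data. The values of 1 gene are not reported singly here.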

Additional observations from a re-analysis of the deposited data

Results flagged for a closer look

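Cxcl14 in PT2 stood apart from the other PT libraries. It was at 3.21 FPKM, beside 27.3, 19.6 and 24.3 FPKM in PT1, PT3 and PT4, and the gap to the next library was 0.834 of the range of the 4 values on the log2(FPKM + 1) scale, above Dixon's 95% critical value for 4 samples. Of the 12 genes examined in PT this was the one past that value, and chance gives about 1 in 20. AstroEGFR 2, the parent culture of PT2, was also the lowest of its group, at 18.6 FPKM.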

How the results depend on the processing

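In the comparison of PT with AstroEGFR, 152 features passed the threshold, and the number was 62 with all 10 libraries in 1 fit, 59 with PT1 and PT4 averaged, 8 without the 2 shallow libraries, 475 with the batch as a replicate block, and 7 to 123 with 1 library left out. Leaving out AstroEGFR 1 gave the lowest number. With the block the number fell to between 5 and 186 when 1 library was left out, and to 5 without the shallow libraries (both chosen after seeing the data). The number of chemokine genes past the threshold was 3 with the replicate block, 0 to 2 with the block and 1 library left out, 0 with the block and without the shallow libraries, and 0 in every alternative without the block. In the comparison of AstroEGFR_Zfp423 with AstroEGFR, 2 features passed without the replicate block and 0 to 51 with 1 batch left out, the 51 without batch 2, while 0 chemokine genes passed in any alternative. In the other lists the block between PT and AstroEGFR added calls of Nfkbiz, Aqp4, Col1a1, Col1a2 and Fn1.

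Of 266 refitted differences of single genes between PT and AstroEGFR, 256 kept their direction and side of the threshold and 7 newly passed it, all with the block. With 1 library left out, with or without the block, Cxcl10 ranged from -0.33 (without AstroEGFR 1) to 1.73 and Cx3cl1 from -2.31 to 0.084 (with the block and without AstroEGFR 1). For AstroEGFR_Zfp423, 158 of 166 were the same. With 1 batch left out, the differences that turned ranged from -0.0077 to 0.35 for Ccl25, -1.57 to 0.16 for Cx3cl1, -2.24 to 0.25 for Cxcl12, -0.99 to 0.62 for Cxcr4, -1.65 to 2.10 for Cxcr6 and -1.45 to 0.69 for Cxcr7; a pseudocount of 0.1 turned Cxcr6 (-0.16). The cause was not tested.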

Other observations

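Chemokine genes whose symbols fall outside the rule included Pf4 (platelet factor 4, a CXC ligand also made by macrophages), which stood at 23.8, 142 and 0.0474 FPKM in AstroEGFR_Zfp423 1 to 3 and at most 2.47 FPKM elsewhere. Ppbp, another CXC ligand of platelets, stood at 2.41, 1.64 and 0 FPKM in the same cultures, and the atypical receptor Ccrl2 at 5.28, 1.33 and 0.101 FPKM. Cklf, a chemokine-like factor, was between 6.19 and 15.5 FPKM in all 10 libraries, and Ccl27a between 0.603 and 4.43 FPKM. Xcl1 and Ccl21a, ligands of dendritic cells and lymphoid tissue, were listed at 0 in all 10 libraries. Of the 21 genes of this list 17 were found, with 3 tested between PT and AstroEGFR and 6 between AstroEGFR_Zfp423 and AstroEGFR. Of these 0 passed the threshold of limma in either comparison, and 0 had an unadjusted p below 0.05 when PT was fitted without the block. With that block 1 of the 3 did, Ccl27a, which was lower in PT at -0.74 (SE 0.29, limma, unadjusted p = 0.0493). This stands beside 3117 of all 12261 features.

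Ccl20, a ligand of Ccr6 induced by NF-kappaB, reached 2.58 FPKM in PT2 and was at most 0.267 FPKM in the other 9 libraries. Ccr10, a receptor of skin-homing T cells, was listed above 0 in all 10 libraries, at 0.0756 to 1.29 FPKM. These genes were chosen after their values were seen.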
